A study of Homo sapiens with 3 samples.

Results

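The transcripts of SQSTM1 and of 9 further autophagy genes were examined in AGS, a cell line from a human stomach adenocarcinoma, after 48 h with 12 µM of a compound named SFA, with 18 µM of a compound named SFE, or with the vehicle DMSO as the control. The members were taken by gene name from the deposited table, and all 10 were found among its 50868 genes: the cargo receptors SQSTM1 and NBR1, the ATG8-type proteins MAP1LC3B, GABARAPL1 and GABARAPL2, the kinase ULK1, and BECN1, WIPI1, ATG5 and ATG7. Each group is 1 library of rRNA-depleted total RNA. No difference can therefore be set against a spread between cultures, no test between conditions was possible, and every interval below is a 95% interval of counting error only. The labels do not say what SFA and SFE stand for, and the doses of the 2 compounds differ, so their values are given side by side.

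Macroautophagy encloses cytoplasm in a double membrane and delivers it to the lysosome. ULK1 starts the process, and the lipid kinase complex that holds BECN1 makes the phosphoinositide PI3P on the growing membrane. WIPI1 reads that lipid. ATG7 and ATG5 take part in coupling ATG8-type proteins to the growing membrane. SQSTM1 and NBR1 bind ubiquitinated cargo and ATG8-type proteins at once and are degraded with their cargo. SQSTM1 also binds KEAP1, the adaptor that keeps the transcription factor NRF2 low, and the SQSTM1 gene is itself a known NRF2 target. Only RNA was measured here, so nothing below speaks of protein amount or of autophagic turnover.

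The total counts were 13639844 with SFA, 13644676 with SFE and 18767232 with DMSO, and 3 counts correspond to 0.220, 0.220 and 0.160 CPM, that is, counts scaled to a common library total. Of 6 epithelial markers, 3 reached 1 FPKM (KRT8, KRT18 and CLDN4), while EPCAM, KRT19 and CDH1 stayed at or below 0.336 FPKM in every library. The summed FPKM of the 6 was 518 with SFA, 528 with SFE and 952 with DMSO, which is nearly all KRT8 and KRT18. Of 6 fibroblast markers, 3 reached 1 FPKM (COL1A1, COL3A1 and PDGFRB), with a sum of 10.3, 12.7 and 26.6 FPKM, and COL1A2 was listed at 0 with both compounds. None of 5 leukocyte or 4 endothelial markers reached 1 FPKM. The part of these markers in the results below was not tested. In bulk RNA, fewer cells that express a gene and less RNA per cell cannot be told apart.

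The start regions of 4 members are shown because SQSTM1 stood furthest above DMSO, ULK1 and GABARAPL1 furthest below, and MAP1LC3B holds the single motif match. They are the 250 bases before a RefSeq gene start on GRCh38.p14, plus strand, 5′ to 3′, at chr5:179820655-179820904 for SQSTM1 (the most downstream of its 3 listed starts), chr12:131894372-131894621 for ULK1, chr12:10212627-10212876 for GABARAPL1 and chr16:87392086-87392335 for MAP1LC3B. The windows of SQSTM1, GABARAPL1 and MAP1LC3B lie inside the gene's span in the deposited table, whose first start is further upstream. Capitals mark a match to TGACNNNGC, the core of the antioxidant response element that NRF2 binds.
SQSTM1: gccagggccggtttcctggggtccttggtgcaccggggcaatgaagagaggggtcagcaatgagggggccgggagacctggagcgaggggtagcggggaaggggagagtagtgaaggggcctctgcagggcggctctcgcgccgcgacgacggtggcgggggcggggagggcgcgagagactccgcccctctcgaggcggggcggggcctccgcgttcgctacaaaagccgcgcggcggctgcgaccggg
ULK1: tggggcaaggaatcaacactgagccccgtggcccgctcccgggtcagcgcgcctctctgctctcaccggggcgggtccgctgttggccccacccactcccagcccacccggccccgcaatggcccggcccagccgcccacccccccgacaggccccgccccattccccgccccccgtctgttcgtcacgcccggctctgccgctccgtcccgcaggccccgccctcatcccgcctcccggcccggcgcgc
GABARAPL1: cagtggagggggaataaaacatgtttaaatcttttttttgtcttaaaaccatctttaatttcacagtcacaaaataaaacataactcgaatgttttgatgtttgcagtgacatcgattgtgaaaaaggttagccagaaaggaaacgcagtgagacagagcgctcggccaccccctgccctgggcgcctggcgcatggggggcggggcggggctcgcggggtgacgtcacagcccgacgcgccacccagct
MAP1LC3B: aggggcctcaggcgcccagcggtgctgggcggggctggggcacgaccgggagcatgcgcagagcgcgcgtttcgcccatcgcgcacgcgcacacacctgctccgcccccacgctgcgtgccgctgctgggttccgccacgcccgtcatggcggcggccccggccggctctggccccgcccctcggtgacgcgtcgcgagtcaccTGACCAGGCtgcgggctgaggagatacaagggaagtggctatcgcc
RefSeq windows of 300 bases, from 250 before to 50 after a start, were found for all 10 members, 14 windows in all. On both strands, TGACNNNGC was present in 1 of the 14, the MAP1LC3B window, 46 bases before the start, and in 13.3% of 35116 promoters. The E-box CACGTG, the core of the sites bound by the autophagy and lysosome regulator TFEB, was in none of the 14 and in 7.26% of all promoters. TGATGCAA, a composite element bound by C/EBP and ATF factors, was in none of the 14 and in 0.866% of all promoters. These are matches of letters in short windows and say nothing of elements that lie further away. The 300-base window around the start shown has 73.0% G and C for SQSTM1, 78.3% for ULK1, 51.7% for GABARAPL1 and 75.7% for MAP1LC3B. The median over all promoters is 58.7%.

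SQSTM1 was the member that differed most from DMSO. On chromosome 5 (179806398 to 179838078, hg38), it had 16571 counts with SFA, 13436 with SFE and 8445 with DMSO, or 87.0, 70.5 and 32.2 FPKM (counts scaled by gene length and library total). Both compound libraries lay above DMSO. The ratio of counts scaled by library total was 2.70 for SFA over DMSO (2.63 to 2.77) and 2.19 for SFE over DMSO (2.13 to 2.25). Differences were also taken as log2(FPKM + 1), a scale that understates the change of low genes. On it SQSTM1 was 1.41 higher with SFA, a difference exceeded by 57 of 11680 genes tested, and 1.11 higher with SFE, exceeded by 115. Genes that stayed below 1 FPKM in all libraries were not among those tested. SQSTM1 alone took 0.121% of all counts with SFA, 0.0985% with SFE and 0.0450% with DMSO.

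The SQSTM1 count outweighed those of the 9 other members together in the compound libraries. It was 2.17 times their summed count with SFA and 1.56 times with SFE, against 0.663 times with DMSO. The other 9 summed to 560 CPM with SFA, 631 with SFE and 678 with DMSO. That sum does not stand for each gene, since 6 of the 9 had ratios above 1 with SFA and 7 with SFE. ULK1 was at 118 CPM with SFA, 152 with SFE and 246 with DMSO, and GABARAPL1 at 41.3, 79.0 and 99.5.

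**Figure D1:**
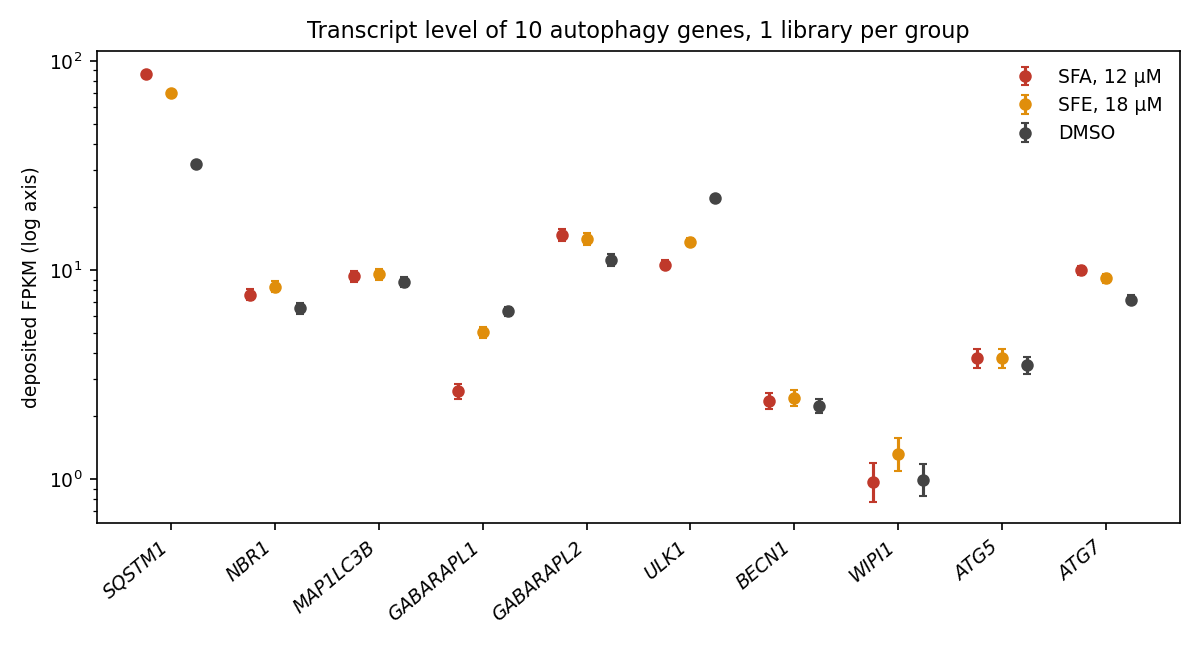
Deposited FPKM (log axis) of the 10 autophagy genes, with 1 point per library (SFA red, SFE orange, DMSO grey) and bars for the exact 95% Poisson counting interval. SQSTM1 is at 87.0 and 70.5 FPKM with SFA and SFE against 32.2 FPKM with DMSO, and ULK1 and GABARAPL1 are lower with both compounds. The other 7 genes have ratios to DMSO from 0.978 (WIPI1 with SFA) to 1.38 (ATG7 with SFA).

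NBR1, the other ubiquitin-binding cargo receptor among the members, differed little beside SQSTM1. On chromosome 17 (43170481 to 43211689), it had 1038 counts with SFA, 1135 with SFE and 1227 with DMSO, or 7.61, 8.32 and 6.54 FPKM. Its ratio was 1.16 for SFA over DMSO (1.07 to 1.27) and 1.27 for SFE over DMSO (1.17 to 1.38), so both intervals lay above 1. Outside the members, 3 receptors of similar role were low in all libraries: OPTN stood at 0.834 FPKM with SFA, 0.628 with SFE and 0.630 with DMSO, TAX1BP1 at 2.22, 1.83 and 2.10, and CALCOCO2 at 1.53, 1.57 and 1.54. Of the summed FPKM of these 5 receptors, SQSTM1 made up 87.7% with SFA, 85.1% with SFE and 74.9% with DMSO.

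GABARAPL1 was lower with both compounds. It encodes an ATG8-type protein of the GABARAP branch, on chromosome 12 (10212458 to 10223130). It had 564 counts with SFA, 1078 with SFE and 1867 with DMSO, or 2.63, 5.03 and 6.33 FPKM. The SFA library was 2.41-fold below DMSO (2.19 to 2.65) and the SFE library 1.26-fold below (1.17 to 1.36). On the log2(FPKM + 1) scale the differences were −1.01 for SFA and −0.28 for SFE.

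GABARAPL2, MAP1LC3B and GABARAP did not share that direction. GABARAPL2, also of the GABARAP branch, on chromosome 16 (75566351 to 75577881), had 872 counts with SFA, 836 with SFE and 910 with DMSO, or 14.7, 14.1 and 11.2 FPKM. Its ratios were 1.32 for SFA (1.2 to 1.45) and 1.26 for SFE (1.15 to 1.39). MAP1LC3B, which encodes LC3B, the protein most often used as a marker of autophagosomes, on chromosome 16 (87383995 to 87404779), stood at 9.32 FPKM with SFA, 9.54 with SFE and 8.73 with DMSO. Its ratio was 1.07 for SFA (0.980 to 1.16) and 1.09 for SFE (1.003 to 1.19). The first interval holds 1, and under TMM scaling (trimmed mean of M values) the second does too (1.02, 0.937 to 1.11). GABARAP, the remaining abundant gene of the family, stood at 28.4, 27.1 and 24.0 FPKM. The near-copies MAP1LC3B2 (8, 5 and 6 counts) and GABARAPL3 (0, 0 and 1 counts) took few counts in the deposited table, and how reads shared with a copy were assigned is not stated.

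Over the 7 genes of the ATG8 family the sum per length was nearly equal with SFA and DMSO and somewhat higher with SFE, while its make-up differed. Here the length is that of each gene's exons merged so that no base counts more than once (GENCODE 29), for a reason given below. On this scale the 7 genes summed to 97.6 CPM per kilobase with SFA, 104 with SFE and 97.9 with DMSO. GABARAPL1 made up 10.4% of the sum with SFA and 18.6% with SFE, against 24.9% with DMSO. GABARAP made up 53.2%, 47.7% and 44.9%, and GABARAPL2 21.6%, 19.4% and 16.3%. On deposited FPKM the share of GABARAPL1 was 4.69% with SFA, 8.85% with SFE and 12.3% with DMSO, in the same order at lower values. The sum on that scale was above DMSO with both compounds, at 56.1 with SFA, 56.8 with SFE and 51.3 with DMSO.

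**Figure D2:**
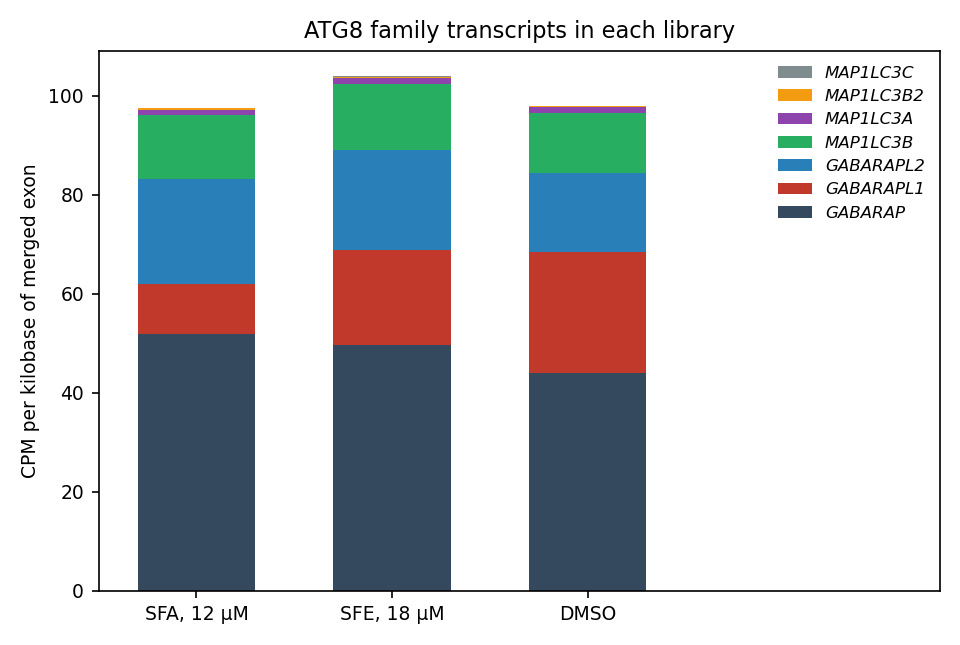
Stacked levels of the 7 ATG8 family genes (CPM per kilobase of merged exon, axis from 0) in the SFA, SFE and DMSO libraries, 1 library each and without error bars. The stacks end at 97.6, 104 and 97.9, while the GABARAPL1 segment is 10.1 with SFA and 19.3 with SFE against 24.3 with DMSO.

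ULK1, the kinase that starts autophagosome formation, was lower with both compounds. On chromosome 12 (131894651 to 131923167), it had 1615 counts with SFA, 2077 with SFE and 4625 with DMSO, or 10.6, 13.6 and 22.0 FPKM. The SFA library was 2.08-fold below DMSO (1.97 to 2.20) and the SFE library 1.62-fold below (1.54 to 1.71). On the log2(FPKM + 1) scale the differences were −0.99 and −0.66, exceeded downward by 158 and 313 of the 11680 genes. None of its partners in the same complex passed the 1.5-fold limit used below: ATG101 stood at 20.6 FPKM with SFA, 18.0 with SFE and 14.9 with DMSO, ATG13 at 9.91, 10.5 and 8.65, and RB1CC1 at 1.31, 1.35 and 1.64.

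BECN1 and WIPI1, which act in the making and reading of PI3P, lay near DMSO, apart from a WIPI1 ratio of 1.33 with SFE. BECN1, a subunit of the lipid kinase complex, on chromosome 17 (42810134 to 42833350), had 519 counts with SFA, 538 with SFE and 678 with DMSO, or 2.36, 2.44 and 2.24 FPKM. Its ratios were 1.05 (0.938 to 1.18) and 1.09 (0.973 to 1.22), and both intervals hold 1. WIPI1, the PI3P reader, on chromosome 17 (68420948 to 68457513), was the least abundant member, with 91, 124 and 128 counts or 0.969, 1.32 and 0.990 FPKM. It entered the genes tested only through the SFE library, and the other 9 members were at 1 FPKM or more in every library. Its ratio was 0.978 for SFA (0.739 to 1.29) and 1.33 for SFE (1.03 to 1.72), and under TMM scaling the SFE ratio was 1.25 with an interval that holds 1 (0.965 to 1.61).

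In the conjugation step ATG7 was somewhat higher and ATG5 was not distinguishable from DMSO at this depth. ATG7, the activating enzyme of both ubiquitin-like conjugation systems, on chromosome 3 (11272309 to 11557665), stood at 9.97 FPKM with SFA, 9.12 with SFE and 7.22 with DMSO, from 1633, 1495 and 1627 counts. Its ratio was 1.38 for SFA (1.29 to 1.48) and 1.26 for SFE (1.18 to 1.36). ATG5, which forms a complex with ATG12 and ATG16L1, on chromosome 6 (106184476 to 106325820), stood at 3.79, 3.78 and 3.49 FPKM, from 356, 356 and 452 counts. Its ratio was 1.08 in both comparisons (0.940 to 1.25).

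**Figure D3:**
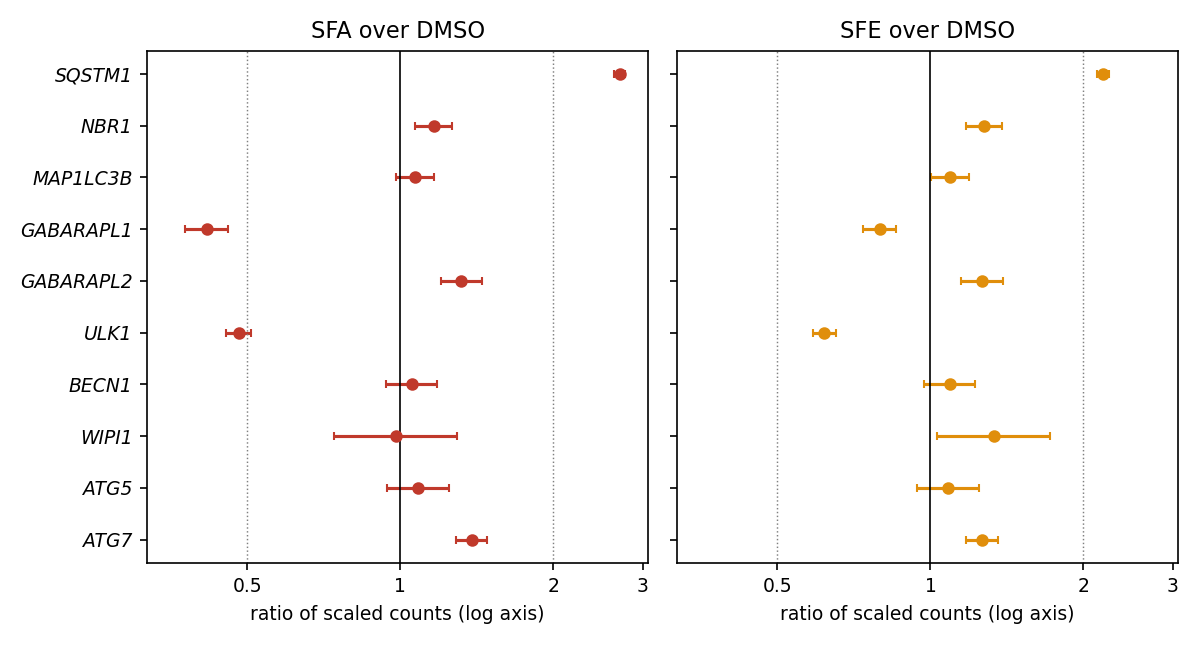
Ratio of scaled counts (log axis) of the 10 autophagy genes for SFA over DMSO (left) and SFE over DMSO (right), with 95% counting intervals, and dotted lines at 0.5 and 2. SQSTM1 is at 2.70 and 2.19, ULK1 at 0.480 and 0.618 and GABARAPL1 at 0.416 and 0.794, and the intervals of BECN1 and ATG5 hold 1 in both panels.

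Few of the 10 members passed a limit of size, and the share of all genes tested that did so is given beside each count. At 2-fold or more on the log2(FPKM + 1) scale, 1 of 10 members was higher with SFA (SQSTM1), beside 1.36% of genes tested, and 1 was lower (GABARAPL1), beside 1.34%. That count of lower members was 2, with ULK1, under TMM and median-ratio scaling, with a pseudocount of 0.1 and per merged exon length. With SFE 1 was higher (SQSTM1), beside 1.37%, and none was lower, beside 1.01%. At 1.5-fold, 1 was higher and 2 were lower with SFA (GABARAPL1 and ULK1), beside 5.36% and 4.67%, and 1 was higher and 1 lower with SFE (ULK1), beside 5.34% and 3.48%. The counting interval of the ratio lay above 1 for 4 members with SFA and 6 with SFE, beside 27.6% and 28.9% of genes, and below 1 for 2 in each, beside 26.8% and 22.8%. Such intervals compare single libraries, and more than 1 in 2 genes passes them. The median difference of the 10 members was 0.09 with SFA and 0.17 with SFE, beside 0.01 and 0.03 over all genes tested. Both comparisons share the DMSO library.

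The order of the members by level depended on the gene length used. The deposited FPKM divides counts by a length that, for 9 of the 10 members, equals within 0.1% the summed length of all distinct exons in GENCODE 29, with overlapping exons counted again each time. ATG5 is the exception. The deposited length exceeded the merged exon length 1.19-fold for NBR1 and 3.84-fold for GABARAPL1, the lowest and the highest among the members. GABARAPL1 has 46 distinct exons annotated that merge into 5, and its deposited length of 15708 bases exceeds the 4086 bases of merged exon. This lowers its FPKM in every library alike and leaves ratios between libraries as they are. The log2(FPKM + 1) differences do depend on the length, because of the added 1. With SFA that of GABARAPL1 was −1.01, beside −1.27 for the log2 of its count ratio. The limit of 1 FPKM depends on the length too, and 12554 genes reached it per merged exon length in place of 11680.

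Per merged exon length, the order in the DMSO library was SQSTM1 at 58.8 CPM per kilobase, ULK1 at 32.4, GABARAPL1 at 24.3, GABARAPL2 at 16.0, MAP1LC3B at 12.2, ATG7 at 9.81, NBR1 at 7.78, BECN1 at 5.63, ATG5 at 4.26 and WIPI1 at 2.0. No counting intervals of neighbours in that order overlapped. GABARAPL1 was thus the third most abundant member with DMSO, although it was the seventh by deposited FPKM. With SFE, GABARAPL2 (20.2), ULK1 and then GABARAPL1 (19.3) came after SQSTM1 (129) with overlapping intervals. With SFA, SQSTM1 (159) was followed by GABARAPL2 (21.1), ULK1 (15.6), ATG7 (13.6), MAP1LC3B (13.1) and GABARAPL1 (10.1). There the intervals of ATG7 and MAP1LC3B overlapped, as did those of GABARAPL1 and NBR1 (9.05).

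**Figure D4:**
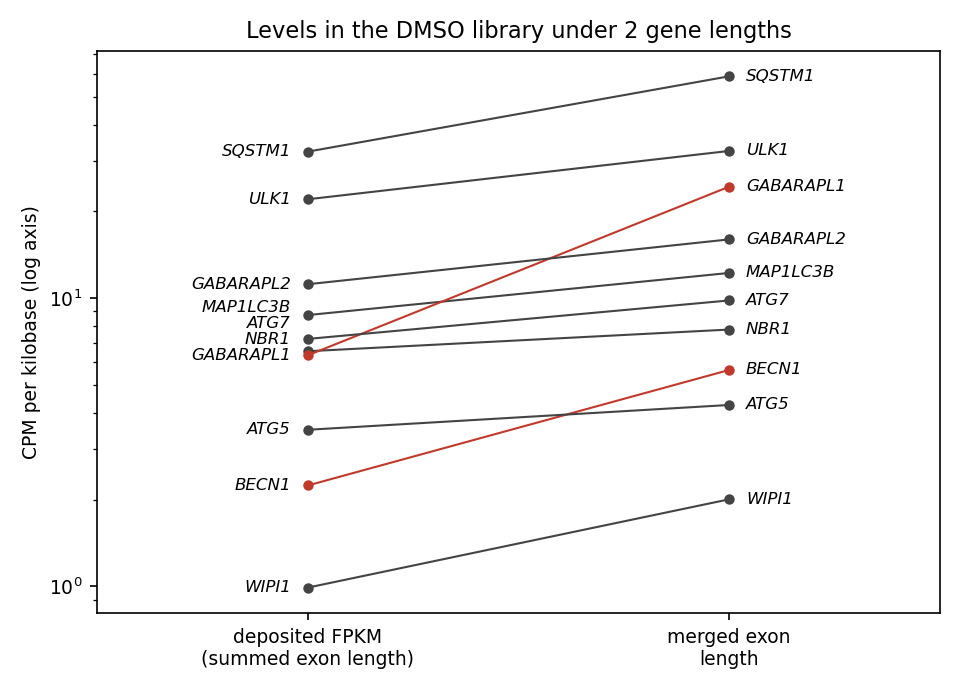
Level of each of the 10 genes in the DMSO library (log axis, CPM per kilobase) by the deposited FPKM on the left and by merged exon length on the right, without error bars. GABARAPL1 (red) goes to 24.3 per merged exon length where its FPKM is 6.33, from rank 7 to rank 3 of the members. BECN1 (red) goes to 5.63 where its FPKM is 2.24, from rank 9 to rank 8, and passes ATG5 only.

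Every member overlaps at least 1 other listed gene, as do 56.1% of all genes in the table, and 7 share exon bases with one. The labels and notes name no strand setting for the counting, so reads of overlapping genes cannot be told apart with certainty. SQSTM1 shares 20.7% of its merged exon bases with C5orf45 (current symbol MRNIP) and 1.37% with MGAT4B, both on the opposite strand. C5orf45 had 5003 counts with SFA, 4612 with SFE and 3212 with DMSO, ratios of 2.14 (2.05 to 2.24) and 1.97 (1.89 to 2.07), and MGAT4B had 4769, 4229 and 4624 counts, ratios of 1.42 and 1.26. How many of these counts belong to SQSTM1, or the reverse, was not tested. BECN1 shares 4.68% of its exon bases with PSME3, which stood at 5688 counts with SFA, 4616 with SFE and 2387 with DMSO, and 12.4% with CNTD1, which had 3, 1 and 9 counts. WIPI1 shares 24.3% with ARSG (174, 192 and 236 counts), ATG7 18.1% with VGLL4 (479, 552 and 728 counts) and MAP1LC3B 2.82% with FBXO31 (733, 776 and 1117 counts). GABARAPL1 shares 8.05% with its antisense gene GABARAPL1-AS1 (2, 3 and 7 counts) and NBR1 5.51% with a long noncoding RNA gene on the other strand (62, 110 and 98 counts). ULK1, GABARAPL2 and ATG5 share no exon base with a listed gene, although each overlaps one.

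Of 78 further genes in 8 lists by step, 65 reached 1 FPKM. On the log2(FPKM + 1) scale, with SFA 1 of these was at least 1.5-fold higher and 3 lower, and with SFE 1 was higher and 3 lower, beside the shares of 5.36%, 4.67%, 5.34% and 3.48% over all genes given above. With a pseudocount of 0.1, 2 were higher and 4 lower with SFA. The counting interval of the ratio lay above 1 for 19 and below 1 for 23 of the 65 with SFA, and above 1 for 23 and below 1 for 15 with SFE, beside the 27.6%, 26.8%, 28.9% and 22.8% of all genes. Their median difference was 0.00 with SFA and 0.04 with SFE, beside 0.01 and 0.03 over all genes tested. No gene of the lipid kinase complex, of the lipid supply and PI3P list or of the conjugation list passed the 1.5-fold limit in either direction on that scale, which understates low genes. By count ratio with SFA, ATG4C, a protease that processes ATG8-type proteins, was 1.66-fold lower (1.14 to 2.45), and WDR45, a PI3P reader, was 1.53 times DMSO (1.40 to 1.68).

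Within the 8 lists by step, the largest log2(FPKM + 1) difference outside the members was that of a regulator. DEPTOR, an inhibitor of the MTOR kinase that restrains autophagy, had 93 counts with SFA, 102 with SFE and 389 with DMSO, 3.04-fold (2.42 to 3.85) and 2.77-fold (2.22 to 3.48) lower. It overlaps another listed gene. TFE3, a relative of TFEB that drives autophagy and lysosome genes, stood at 12.0 FPKM with SFA, 23.3 with SFE and 21.5 with DMSO, and TFEB itself at 2.26, 2.30 and 2.94. TRIB3, a pseudokinase induced by ATF4, stood at 61.5, 55.9 and 38.6 FPKM. MTOR was at 22.1, 23.0 and 22.3 FPKM.

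Among the genes of autophagosome fusion and the receptors outside the members, 4 passed the 1.5-fold limit on the log2(FPKM + 1) scale in at least 1 comparison. Of 12 fusion genes tested, 1 was lower with SFA, and 1 was higher and 1 lower with SFE. Of 14 receptors tested, members included, only SQSTM1 was higher in either comparison, and 1 was lower, with SFE. Over all genes tested the shares were 5.36% higher and 4.67% lower with SFA, and 5.34% and 3.48% with SFE. YKT6, a membrane fusion protein, stood at 26.0 FPKM with SFA, 12.1 with SFE and 25.9 with DMSO, 2.15-fold below DMSO with SFE (2.02 to 2.29). VPS39, a subunit of the HOPS tethering complex, stood at 5.49, 7.16 and 3.73 FPKM, a ratio of 1.47 with SFA (1.35 to 1.595) and 1.92 with SFE (1.78 to 2.07). VPS41, another subunit of that complex, stood at 0.909, 1.90 and 2.15 FPKM, 2.36-fold lower with SFA (1.93 to 2.92). RTN3, a receptor for degradation of the endoplasmic reticulum, stood at 15.1, 10.1 and 18.2 FPKM, 1.81-fold lower with SFE (1.72 to 1.90).

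**Figure D5:**
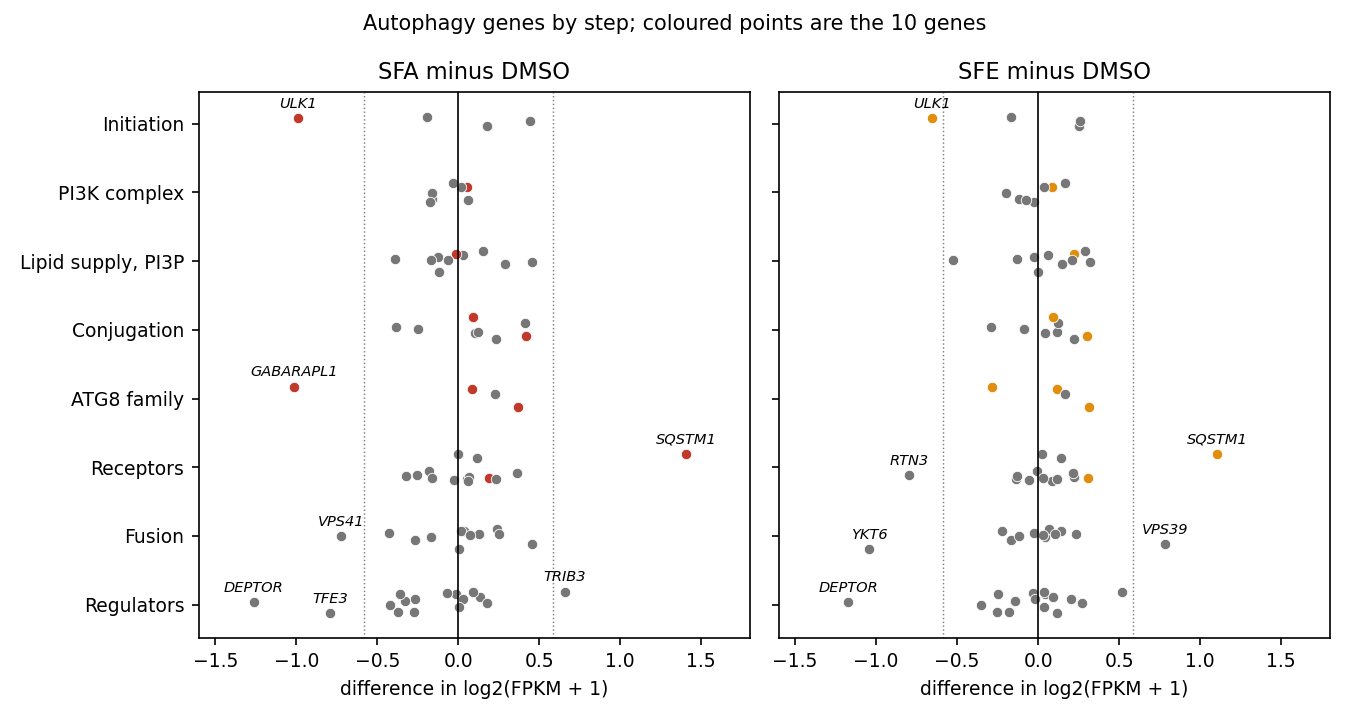
Difference in log2(FPKM + 1) for genes of 8 lists by autophagy step, SFA minus DMSO on the left and SFE minus DMSO on the right, with 1 point per gene at 1 FPKM or more. The 10 members are coloured, and dotted lines mark 1.5-fold. Names are written at points past the lines: SQSTM1 is the gene furthest to the right in both panels (1.41 and 1.11) and DEPTOR the gene furthest to the left (−1.26 and −1.17).

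Genes that encode partners of the SQSTM1 protein were mixed in direction. KEAP1 stood at 27.7 FPKM with SFA, 24.96 with SFE and 18.5 with DMSO, a ratio of 1.49 (1.42 to 1.57) and 1.35 (1.28 to 1.42). NFE2L2, which encodes NRF2, stood at 3.46, 3.57 and 6.06 FPKM, 1.75-fold (1.59 to 1.94) and 1.70-fold (1.54 to 1.87) lower. PRKCI, an atypical protein kinase C, stood at 4.20, 5.11 and 6.84 FPKM. The SQSTM1 differences were 1.41 with SFA and 1.11 with SFE, beside medians of 1.33 and 0.93 over 10 NRF2 targets. AKR1C1, an aldo-keto reductase gene, had log2(FPKM + 1) differences of 2.72 with SFA and 2.15 with SFE. Earlier results of these data had already shown that NRF2 targets were higher, so this is a description of where SQSTM1 lay.

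The genes whose differences lay closest to those of SQSTM1 were sought among 5454 other genes at 5 FPKM or more in their highest library. Closeness was the straight-line distance between the pairs of log2(FPKM + 1) differences, over 3 libraries of which DMSO enters both. The 5 closest included GDF15 (distance 0.0993), NFKB2 (0.111), SRXN1 (0.118) and HRCT1 (0.144). GDF15, a secreted stress-induced cytokine, stood at 8.62 FPKM with SFA, 7.54 with SFE and 2.72 with DMSO, and NFKB2, which encodes an NF-kappa-B subunit, at 12.7, 10.1 and 4.45. SRXN1, the sulfiredoxin gene and an NRF2 target, stood at 105, 76.8 and 38.0 FPKM. With a pseudocount of 0.1 in place of 1, 3 of the 5 remained among the 5 closest, namely NFKB2, SRXN1 and HRCT1.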

How the data were processed

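RNA was measured in 1 library each of AGS cells with SFA, SFE or DMSO. HISAT2 2.0.4, StringTie 1.2.3 and hg38 are named, without roles, per the submitters' processing notes. Neither the counting tool nor its strand setting is named there. The authors deposited raw counts and FPKM per gene in 1 table. Among 12695 genes with 20 or more counts in every library, the deposited FPKM used the summed length of all distinct GENCODE 29 exons (within 0.1%) for 86.1%, a median of 1.53 times the merged exon length.

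From the deposited counts, ratios scaled by library total were computed with exact conditional (Clopper-Pearson) 95% intervals, checked on simulated counts. Intervals and the 3-count floor cover counting error only, since each group is 1 library. Reads are not independent molecules, so the intervals can be too narrow even for that error. The deposited FPKM gave log2(FPKM + 1) differences for 11680 gene names whose highest library reached 1 FPKM, keeping the identifier with the highest mean FPKM per name. Members and lists were chosen with earlier results of these data known. Named genes are all members, up to 3 per list with the largest difference, KEAP1, NFE2L2, TFEB, the 5 genes closest to SQSTM1 (1 is not reported here) and genes overlapping a member; others named beside them (MTOR, RB1CC1, GABARAP, OPTN, TAX1BP1, CALCOCO2 and near-copies) were chosen after their values were seen. Alternatives were TMM (edgeR 4.0.16) and median-ratio scaling, the protein-coding total, a pseudocount of 0.1, a filter at 5 FPKM or none, leaving out overlapping genes and, added after seeing the data, merged exon length. Python 3.11.15, scipy 1.17.1 and R 4.3.3 were used.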

Additional observations from a re-analysis of the deposited data

How the results depend on the processing

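No paired analysis was possible because each group is 1 library, and for the same reason no replicate could be left out. All 10 members kept the direction of their ratio in both comparisons under TMM, median-ratio and protein-coding scaling. The SQSTM1 ratio for SFA was 2.59 under TMM scaling, and that for SFE was 2.05 under TMM and 2.07 under median-ratio scaling, each outside its counting interval. The count of members at least 2-fold lower with SFA was 2 in place of 1, ULK1 being added, under TMM scaling, under median-ratio scaling, with a pseudocount of 0.1 and per merged exon length. The count of members whose interval lay above 1 with SFE was 4 in place of 6 under TMM and under median-ratio scaling, without MAP1LC3B and WIPI1. At a filter of 5 FPKM, which leaves out low members, the members' median difference was 0.19 with SFA and 0.30 with SFE. With a pseudocount of 0.1, 2 further autophagy genes in place of 1 were at least 1.5-fold higher with SFA, and 3 of the 5 genes closest to SQSTM1 remained so. Without genes that overlap another listed gene no member is left, so no value could be given. The median over all genes moved by less than 0.1 under every scaling tried. WIPI1, with 91 to 128 counts, is the member that depth limits most.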

Other observations

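The deposited table carries its own annotation, and 481 gene names besides the 10 members hold its Gene Ontology term autophagy. This list was taken up after the data were seen. Of the 336 at 1 FPKM or more, 6 were at least 1.5-fold higher and 12 lower with SFA (1.79% and 3.57%), beside 5.36% and 4.67% of all genes tested. With SFE 8 were higher and 10 lower (2.38% and 2.98%), beside 5.34% and 3.48%. The median difference was 0.01 with SFA and 0.03 with SFE, the same as over all genes tested to 2 decimals.

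At least 2-fold differences from DMSO were seen for 8 genes of that list, of which 5 are given here, picked after their values were seen. With SFA, 2 of the 336 were higher and 4 lower on the log2(FPKM + 1) scale, beside 1.36% and 1.34% of all genes tested. With SFE, 3 were higher and none lower, beside 1.37% and 1.01%. BCL2L1, which encodes BCL-XL, an inhibitor of apoptosis that also binds BECN1, had 967 counts with SFA, 864 with SFE and 142 with DMSO, ratios of 9.37 (7.85 to 11.3) and 8.37 (7.0 to 10.1), and overlaps another listed gene. TOMM6, a small subunit of the outer mitochondrial membrane import channel, stood at 22.0 FPKM with SFA, 56.1 with SFE and 12.3 with DMSO. C6orf106 (current symbol ILRUN) stood at 8.91, 40.8 and 10.5 FPKM, and both of these overlap another listed gene. PIP4K2C, a phosphoinositide kinase, stood at 7.33, 3.66 and 2.97 FPKM. ARSB, a lysosomal sulfatase, had 189 counts with SFA, 253 with SFE and 779 with DMSO, ratios of 0.334 and 0.447.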
